A study of Macaca mulatta with 24 samples.

Results

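The NMDA receptor subunit genes were followed in cerebral cortex of adult male rhesus monkeys, by every array probe that the annotation of the Illumina HumanHT-12 V4.0 beadchip assigns to GRIN1, GRIN2A, GRIN2B, GRIN2C, GRIN2D or GRIN3A. These 6 of the 20046 genes named on the array had 12 probes among the 47323 probes of the array: 3 for GRIN1, 4 for GRIN2A, 2 for GRIN2B and 1 each for GRIN2C, GRIN2D and GRIN3A. RNA of cortex from 24 monkeys, housed individually, was hybridized after 24 months of diet, with 1 array per monkey. An age of 7 to 13 years is given for the monkeys in the study's methods, which do not say whether before or after the diet. The study's methods name the region as temporal neocortex, while other passages of its text name frontal cortex, so which it was is not settled here. The HFS+R group (10 monkeys) ate a diet with 42% of its calories from fat and 27% sucrose by weight, and took resveratrol in flavoured treats 2 times a day, each treat holding 40 mg during year 1 and 240 mg during year 2. The HFS group (10 monkeys) ate the same high-fat, high-sugar diet with placebo treats. The SD group (4 monkeys) ate a standard diet with 13% of calories from fat and less than 5% sucrose, also with placebo treats. No group received resveratrol on the standard diet, so resveratrol can be read only against the high-fat, high-sugar diet.

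NMDA receptors are glutamate-gated cation channels at excitatory synapses that open only when glutamate and a co-agonist, glycine or D-serine, are bound and the membrane is depolarised enough to expel the magnesium ion that blocks the pore. The calcium they admit starts synaptic plasticity, and excess calcium through them damages neurons. GRIN1 encodes the obligatory GluN1 subunit, which binds the co-agonist. GRIN2A, GRIN2B, GRIN2C and GRIN2D encode the alternative GluN2 subunits, which bind glutamate and set the kinetics of the channel, and GRIN3A encodes a glycine-binding subunit that lowers calcium entry. In mammalian forebrain GluN2B prevails early in life and gives slowly decaying currents, while GluN2A, with faster currents, gains share as cortex matures.

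Median signal per array lay between 54.9 and 60.3, and 11413 to 14890 probes per array were detected, meaning that their detection p, the chance of such a signal from negative control beads, was under 0.01. The spread of log2 signal within an array (its SD) had a median of 1.47 in HFS+R, 1.42 in HFS and 1.51 in SD. Of 8 general neuron markers 7 were kept by the detection filter, as were 8 of 8 for inhibitory neurons, 6 of 8 for excitatory neurons and 7 of 8 for astrocytes. The excitatory neuron marker NRGN and the neuron marker SYT1 were not kept. Of the cerebellar granule cell markers 3 of 6 were kept, with GABRA6 and ZIC1 not detected on enough arrays, and 1 of 5 choroid plexus markers was kept. How well probes designed on human transcripts pair with monkey RNA was not examined here, so a weak or absent signal of a probe is no measure of the abundance of its gene.

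Detection divided the 12 probes into 3 sets. Of these probes 6 were detected on all 24 arrays: the 3 GRIN1 probes, GRIN2A ILMN_1798104, the GRIN2C probe and the GRIN3A probe. GRIN2B ILMN_1784792 and GRIN2A ILMN_1895690 were detected on some arrays, and 4 probes on none: GRIN2A ILMN_1895745, GRIN2A ILMN_1886395, GRIN2B ILMN_3307714 and the GRIN2D probe ILMN_1740655. A probe was kept for testing if detected on at least 4 arrays, which left 8 of the 12 NMDA receptor probes and 15531 of all 47323. GRIN2D, whose subunit in mammals is found mainly in interneurons and below the cortex, thus has no tested probe. On all arrays GRIN3B, the other gene of the GluN3 pair, was likewise not detected (ILMN_1699854, signal 45.1 to 61.4). GRINA, which is named after the receptor but encodes no channel subunit, was detected on 24 of 24 arrays by both of its probes.

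**Figure D1:**
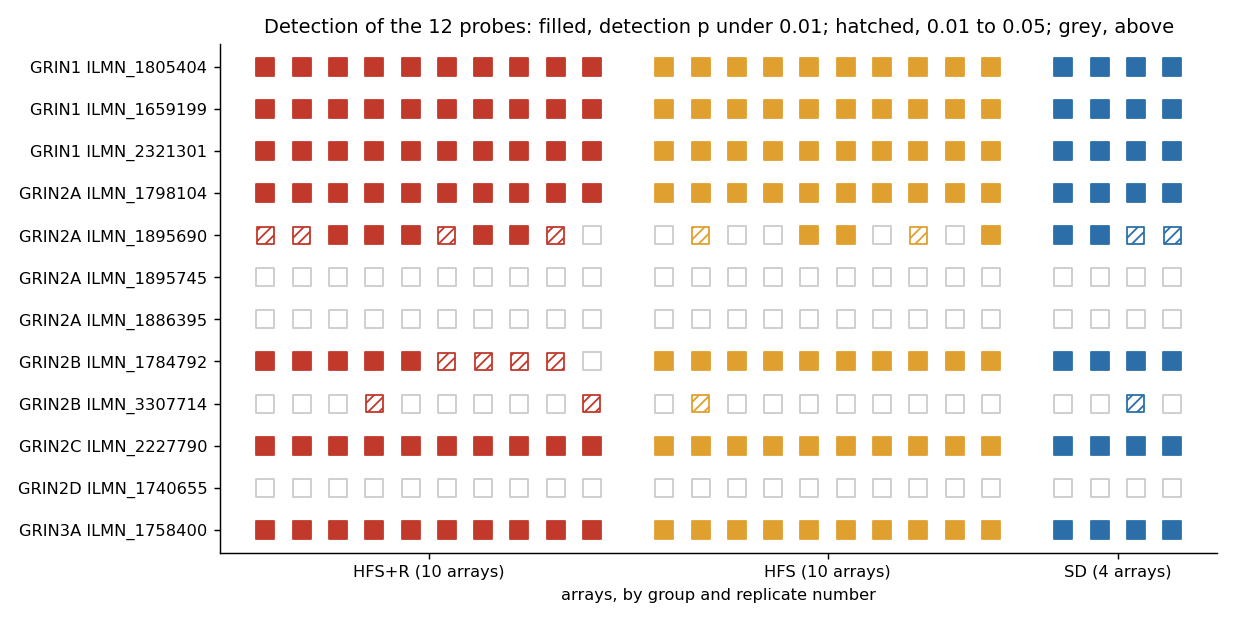
Detection of the 12 NMDA receptor subunit probes (rows) on the 24 arrays (columns, by group and replicate number). Filled squares mark a detection p under 0.01, hatched squares 0.01 to 0.05 and grey outlines higher values; the only group with undetected arrays for GRIN2B ILMN_1784792 is HFS+R, with 5 filled squares of 10.

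Signal on the array spanned a wide range among the kept probes. GRIN1 ILMN_1805404 had a median signal of 6242.7 over the 24 arrays and lay on average at the 99.4th percentile of an array, and GRIN2A ILMN_1798104 had a median signal of 2734.05, at the 98.2th percentile. The GRIN2C probe had a median signal of 293.6, the GRIN3A probe 150.9 and GRIN2B ILMN_1784792 a median signal of 110, while the lowest signal detected on an array ran from 69.1 to 95.6. GRIN2B was therefore read close to the detection limit. Probes differ in how strongly they bind, so these signals do not rank the genes by abundance. In what follows a level is the Z score of the log2 signal on its array, put back on a log2 scale, and every fold change compares 1 probe between groups.

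Among the 8 kept probes, 2 were called in HFS+R vs HFS (adjusted p under 0.05 over all kept probes, limma), both lower, against 14.4% of all kept probes called in either direction, 5.34% lower and 9.06% higher. The called probes were GRIN2B ILMN_1784792 and GRIN1 ILMN_1805404. In HFS vs SD 0 of the 8 were called, and 0 reached an unadjusted p under 0.05; over all kept probes the same comparison called 0% with limma, while 1968 of 15531 had an unadjusted p under 0.05. For HFS+R vs SD 1 of 8 was called, GRIN2B ILMN_1784792, lower, where 6.75% of all kept probes were called, 4.19% lower and 2.56% higher. The median log2 fold change of the 8 was −0.10 in HFS+R vs HFS (all kept probes 0.02), −0.09 in HFS vs SD (all kept probes −0.02) and −0.17 in HFS+R vs SD (all kept probes 0.02). These comparisons share arrays, and probes of 1 gene share their gene, so the counts are not independent of each other. By the thresholds of the study's methods (Z ratio over 1.5 in size, p under 0.05, false discovery rate read as under 0.3), 3 of 8 passed in HFS+R vs HFS, all lower (25.4% of all kept probes passed, 9.43% lower). For HFS vs SD 0 passed (5.62%, 3.51% lower) and for HFS+R vs SD 1, lower (17.8%, 9.21% lower). The third probe to pass in HFS+R vs HFS was that of GRIN2C.

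**Figure D2:**
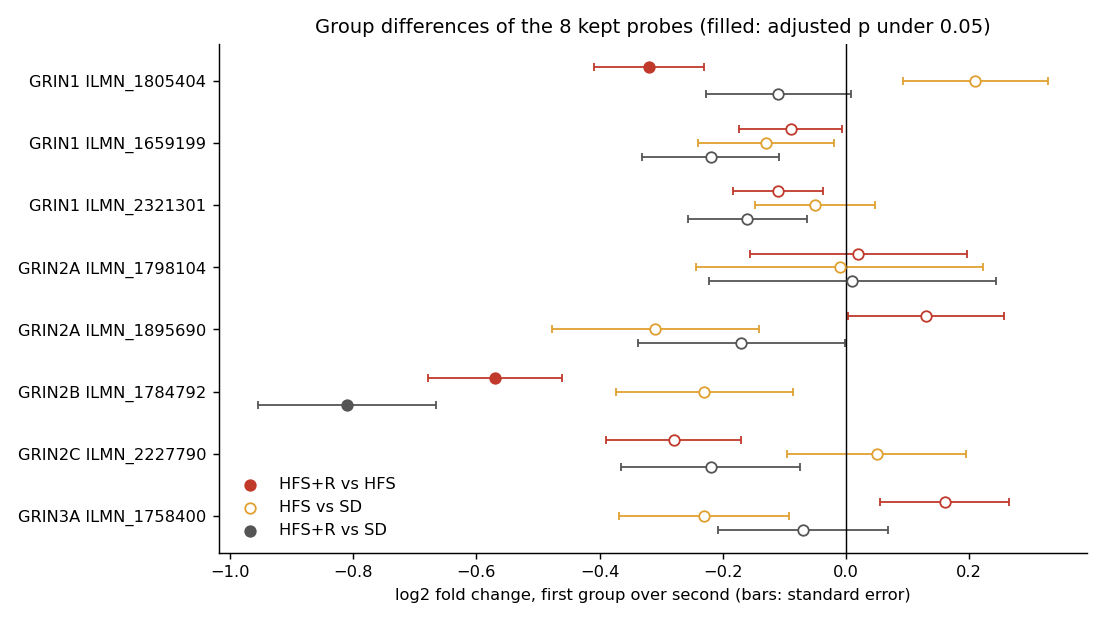
Log2 fold change (horizontal axis, first group over second) of the 8 kept probes for each comparison, with bars of 1 standard error and filled points for an adjusted p under 0.05. Filled points are GRIN2B ILMN_1784792 at −0.57 and −0.81 and GRIN1 ILMN_1805404 at −0.32; no point of HFS vs SD is filled.

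GRIN2B, the gene of the GluN2B subunit, was lowest in HFS+R monkeys. The signal of ILMN_1784792 in the 10 HFS+R monkeys was 64.6 at the lowest, 82.7 at the median and 111.5 at the highest, in the 10 HFS monkeys 94.9, 129.8 and 156.3, and in the 4 SD monkeys 123.6, 153.1, 166.3 and 182.7. On the scaled log2 level the HFS+R monkeys ran from 6.09 through a median of 6.38 to 6.83 and the HFS monkeys from 6.66 through 7.04 to 7.25. The SD monkeys had levels of 6.79, 7.36, 7.36 and 7.38. Of the HFS+R monkeys 7 of 10 lay below every HFS monkey and all 10 below the HFS mean, and 9 of 10 lay below every SD monkey. HFS and SD overlapped only through 1 SD monkey at 6.79, and all 10 HFS monkeys lay below the SD median.

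The mean level of GRIN2B was 6.41 ± 0.28 in HFS+R, 6.99 ± 0.22 in HFS and 7.22 ± 0.29 in SD (SD, n = 10, 10 and 4). The log2 fold change of HFS+R vs HFS was −0.57 (SE 0.109, adjusted p = 0.00232, limma), a ratio of 0.671. Set against SD, HFS+R gave −0.81 (SE 0.144, adjusted p = 0.00111), a ratio of 0.571, and HFS gave −0.23 (SE 0.144, adjusted p = 0.504). HFS+R was thus called lower than both other groups, although its range overlapped with each of them. The lower mean of HFS against SD was not called, and with 4 SD monkeys this does not show that the 2 groups were alike. The Z ratio, which sets a probe's difference in mean Z score against how widely such differences scatter over the whole array, was −5.13 for HFS+R vs HFS, −2.10 for HFS vs SD and −6.03 for HFS+R vs SD.

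Detection of GRIN2B, which is read from the same signal, was incomplete only in HFS+R. ILMN_1784792 passed a detection p of 0.01 on 5 of 10 HFS+R arrays, against 10 of 10 HFS and 4 of 4 SD arrays, and at 0.05 on 9 of 10, 10 of 10 and 4 of 4. The 5 undetected HFS+R arrays had levels of 6.09 to 6.26 and the 5 detected ones 6.50 to 6.83. The fold change so close to background depends on how background is treated: after subtraction of a modelled background (neqc) the log2 fold change was −0.98 in HFS+R vs HFS (adjusted p = 0.0019) and −1.23 for HFS+R against SD (adjusted p = 0.00177). The second GRIN2B probe, ILMN_3307714, was detected on 0 of 24 arrays, with a signal of 52.8 to 71, and says nothing about GRIN2B. With all 47323 probes tested its log2 fold change was 0.01 for HFS+R vs HFS, with an adjusted p of 0.964 (SE 0.056).

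**Figure D3:**
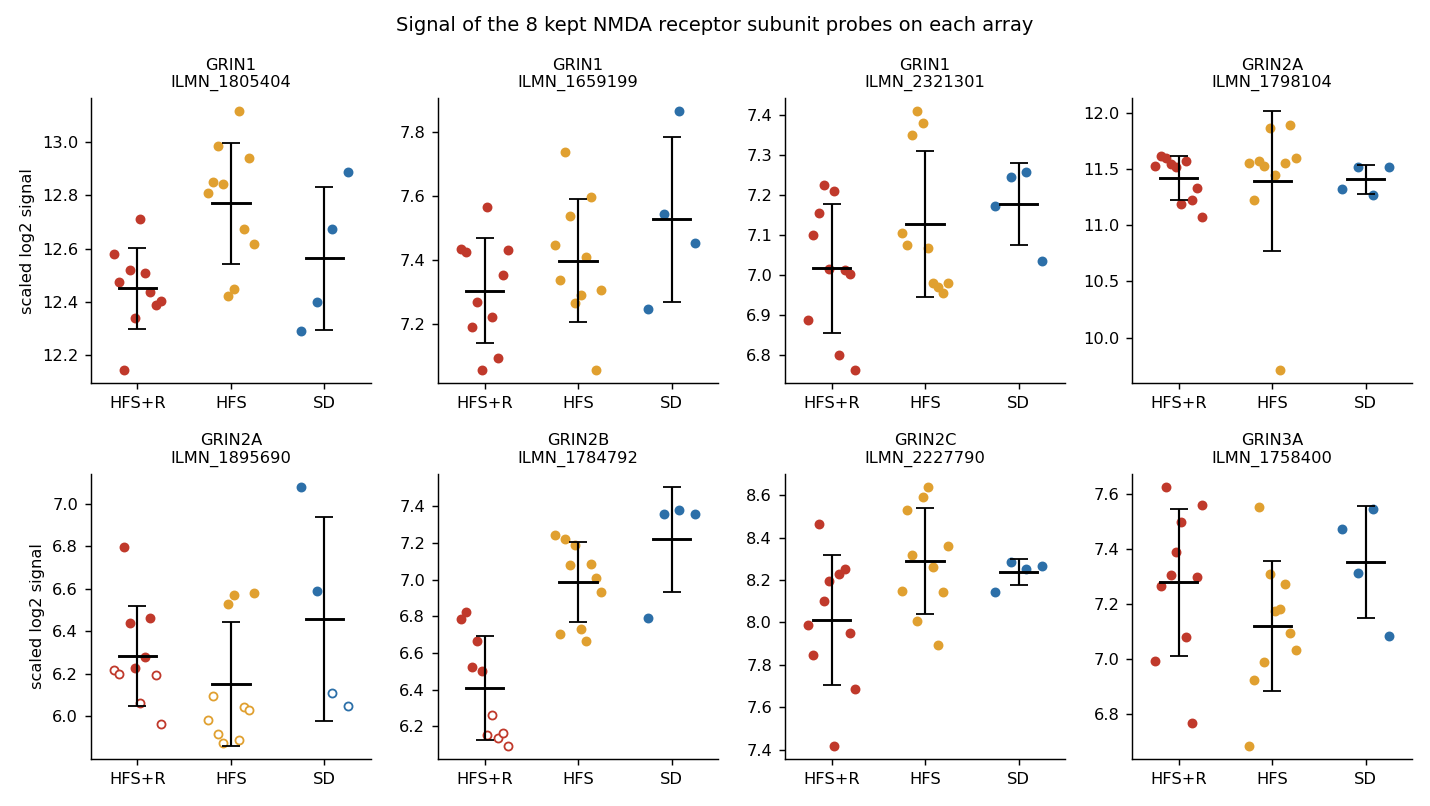
Scaled log2 signal (vertical axis, a range of its own in each panel) of the 8 kept probes on each array, with the group mean and SD in black; open points are arrays on which the probe was not detected at p under 0.01. GRIN2B ILMN_1784792 has means of 6.41 in HFS+R, 6.99 in HFS and 7.22 in SD, and GRIN2A ILMN_1798104 shows 1 HFS array at 9.71 far below the rest.

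In bulk cortex fewer neurons and less RNA per neuron cannot be told apart, so marker levels are given beside GRIN2B. The mean level of the 7 neuron markers, each scaled to SD 1, ran from −1.51 to 1.09 in HFS+R (median −0.0147), from −0.391 to 0.623 in HFS (median 0.088) and from −1.25 to 0.643 in SD (median −0.105). Excitatory neuron markers had medians of −0.066 in HFS+R, −0.0635 in HFS and 0.172 in SD. Oligodendrocyte markers had medians of 0.383 in HFS+R, −0.375 in HFS and −0.164 in SD, and endothelial cell markers 0.35, −0.176 and −0.47. In the same order astrocyte markers had medians of −0.037, −0.319 and 0.474, and inhibitory neuron markers 0.0847, −0.0284 and −0.195. With the neuron marker level as a covariate GRIN2B stood at −0.58 in HFS+R vs HFS (adjusted p = 0.00258), and with the oligodendrocyte marker level at −0.66 (adjusted p = 0.00194). With the array's SD of log2 signal as a covariate it stood at −0.56 (adjusted p = 0.017). The parts of endothelial cells, astrocytes and inhibitory neurons in the GRIN2B difference were not tested.

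GRIN1, the gene of the obligatory GluN1 subunit, was lower in HFS+R than in HFS by its brightest probe. Levels of ILMN_1805404 ran from 12.14 through a median of 12.46 to 12.71 in HFS+R and from 12.42 through 12.83 to 13.12 in HFS, and were 12.29, 12.40, 12.67 and 12.89 in SD. All 10 HFS+R monkeys lay below the HFS mean and 4 of 10 below every HFS monkey, while SD spanned most of both ranges. Group means were 12.45 ± 0.15 in HFS+R, 12.77 ± 0.23 in HFS and 12.56 ± 0.27 in SD (SD, n = 10, 10 and 4). The log2 fold change was −0.32 for HFS+R vs HFS with an adjusted p of 0.019 (SE 0.089, a ratio of 0.801), 0.21 for HFS vs SD with an adjusted p of 0.462 (SE 0.118) and −0.11 for HFS+R vs SD with an adjusted p of 0.636 (SE 0.118). In order of level HFS+R and SD, like SD and HFS, were neighbours whose difference was not called, with only 4 SD monkeys.

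The GRIN1 call was lost under 4 of 39 other settings, and its size changed with how arrays were scaled. Unscaled, the signal of ILMN_1805404 averaged 5934 in HFS+R, 6235 in HFS and 6948 in SD. With each array only centred on its median, the log2 fold change in HFS+R vs HFS was −0.04 (adjusted p = 0.745), at a median of 0.10 over all kept probes in that scaling, and it was −0.14 (adjusted p = 0.197) with the array's SD of log2 signal as a covariate. Neqc gave −0.18 (adjusted p = 0.0669) and the oligodendrocyte marker level as a covariate −0.25 (adjusted p = 0.102). Quantile normalization kept the call at the same size as neqc, −0.18 (adjusted p = 0.0479), and each of the 24 fits with an array left out kept it, at −0.36 to −0.28. The other probes of GRIN1, annotated to other transcripts of the gene and much dimmer, were not called: ILMN_1659199 stood at −0.09 (SE 0.084, adjusted p = 0.486) and ILMN_2321301 at −0.11 (SE 0.073, adjusted p = 0.329) in HFS+R vs HFS.

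Mean levels of ILMN_1659199 were 7.30 ± 0.17 in HFS+R, 7.40 ± 0.19 in HFS and 7.53 ± 0.26 in SD, and those of ILMN_2321301 were 7.02 ± 0.16, 7.13 ± 0.18 and 7.18 ± 0.10. Both dim GRIN1 probes had their highest mean in SD and their lowest in HFS+R, whereas the bright one had its highest in HFS on the scaled level. Unscaled, the bright probe was also highest in SD. Its HFS vs SD difference was −0.16 under median scaling and −0.02 with the array SD covariate, neither called. Against SD the HFS+R levels of the 2 dim probes stood at −0.22 (adjusted p = 0.253) and −0.16 (adjusted p = 0.362).

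GRIN2A, the gene of the GluN2A subunit, had nearly the same mean in the 3 groups. Levels of its bright probe ILMN_1798104 ran from 11.07 through a median of 11.52 to 11.62 in HFS+R, from 9.71 through 11.55 to 11.89 in HFS, and were 11.27, 11.32, 11.51 and 11.52 in SD. The means were 11.42 ± 0.20 in HFS+R, 11.39 ± 0.62 in HFS and 11.41 ± 0.13 in SD (SD, n = 10, 10 and 4). The wide HFS spread came from 1 monkey, HFS replicate 7, whose GRIN2A signal was 640.5, while the other 9 HFS monkeys had signals of 2174.2 to 4267.5. On that array GRIN1 ILMN_1805404 had the highest scaled level of all 24, 13.12, although its unscaled signal there, 5415.3, was among the 6 lowest. The array had the smallest SD of log2 signal of the 24, 1.32, and the lowest mean correlation with the other arrays, 0.984, and the part of these in its GRIN levels was not tested. The log2 fold change of GRIN2A was 0.02 for HFS+R vs HFS, with an adjusted p of 0.947 (SE 0.176), and −0.16 (adjusted p = 0.217) without that array.

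The dim GRIN2A probe ILMN_1895690 was detected on 5 of 10 HFS+R, 3 of 10 HFS and 2 of 4 SD arrays, and on 9, 5 and 4 of them at a detection p of 0.05. Its level averaged 6.28 ± 0.23 in HFS+R, 6.15 ± 0.29 in HFS and 6.46 ± 0.48 in SD. None of its 3 comparisons was called, with log2 fold changes of 0.13 in HFS+R vs HFS (adjusted p = 0.518), −0.31 in HFS vs SD (adjusted p = 0.45) and −0.17 for HFS+R against SD (adjusted p = 0.604). The GRIN2A probes ILMN_1895745 and ILMN_1886395 were detected on 0 of 24 arrays.

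The ratio of GRIN2B to GRIN2A asks whether both alternative glutamate-binding subunits differed alike between diets. It was taken on each array as the GRIN2B level (ILMN_1784792) minus the GRIN2A level (ILMN_1798104), and since it joins probes of unlike brightness only its differences between groups carry meaning. In HFS+R it ran from −5.31 through a median of −5.03 to −4.74, in HFS from −4.89 through −4.50 to −3.05, and in SD it was −4.53, −4.16, −4.16 and −3.89. Every HFS+R monkey lay below every SD monkey, and all 10 lay below the median of HFS. The mean difference was −0.60 in HFS+R vs HFS (permutation test, 2-sided, p = 0.0001, adjusted p = 0.0003 over the 3 comparisons) and −0.82 in HFS+R vs SD (exact permutation p = 0.000999, the smallest that groups of 10 and 4 allow, adjusted p = 0.0015). GRIN2B was not detected on 5 of the 10 HFS+R arrays, so their ratios rest on signal close to background and the size of the difference depends on how background is treated. With neqc, a setting added after seeing the data, it was −1.06 in HFS+R vs HFS (permutation test, adjusted p = 6e-05) and −1.25 in HFS+R vs SD (exact permutation, adjusted p = 0.003).

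In HFS vs SD the ratio differed by −0.22 (exact permutation p = 0.469). HFS replicate 7, the monkey with low GRIN2A, had the highest ratio of all at −3.05. Without it the difference was −0.37 in HFS vs SD (exact permutation, adjusted p = 0.0126) and −0.45 in HFS+R vs HFS. The HFS vs SD difference in the ratio was thus called only with that array left out. The lower ratio of HFS+R was called with and without it.

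**Figure D4:**
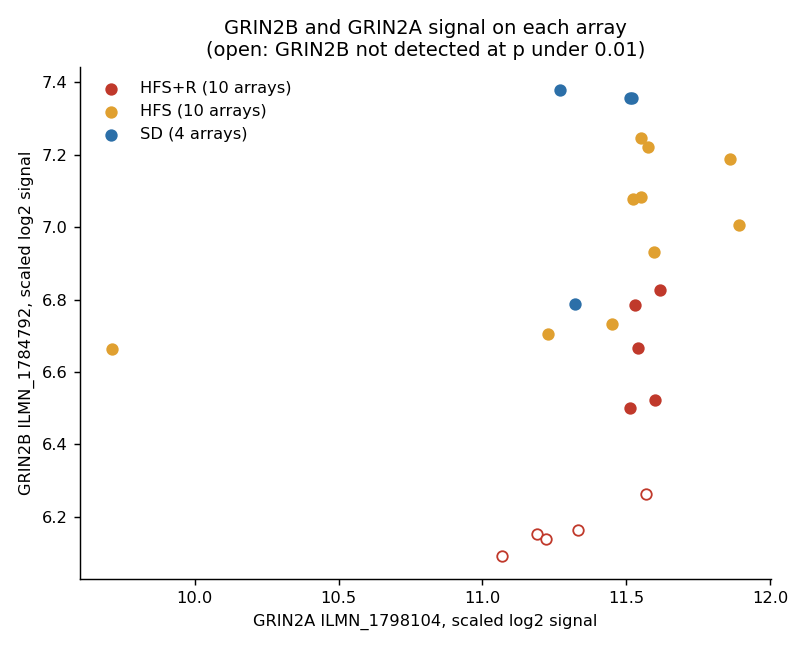
Scaled log2 signal of GRIN2B ILMN_1784792 (vertical axis) against that of GRIN2A ILMN_1798104 (horizontal axis), 1 point per array, open where GRIN2B was not detected at p under 0.01. Of the 10 HFS+R arrays, 7 lie below every HFS array in GRIN2B and 9 below every SD array, while the others overlap with them. HFS replicate 7 stands alone at a GRIN2A level of 9.71.

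GRIN2C, whose subunit in rodents is best known from cerebellar granule cells and from glia, had levels of 7.42 through a median of 8.04 to 8.47 in HFS+R and 7.90 through 8.29 to 8.64 in HFS. In SD they were 8.15, 8.25, 8.27 and 8.29, the narrowest spread of the kept probes in that group. Means were 8.01 ± 0.31, 8.29 ± 0.25 and 8.24 ± 0.06 in HFS+R, HFS and SD (SD, n = 10, 10 and 4). The log2 fold change in HFS+R vs HFS was −0.28 (SE 0.109, unadjusted p = 0.0176, adjusted p = 0.0853, limma), with 9 of 10 HFS+R monkeys below the HFS mean, so the test was missed. Of 39 other settings 6 passed it: quantile normalization (−0.33, adjusted p = 0.0348), neqc (−0.38, adjusted p = 0.0407), the array SD covariate (−0.39, adjusted p = 0.0491), the neuron marker covariate (−0.32, adjusted p = 0.0301), and without HFS+R replicate 3 (−0.33) or HFS replicate 8 (−0.32), each at an adjusted p of 0.0476. Under the other 33 settings it was missed too, with the smallest difference under median scaling (−0.17, adjusted p = 0.394), and with an adjusted p of 0.173 with no filter on dim probes.

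Against SD the GRIN2C log2 fold change was −0.22 for HFS+R (SE 0.145, adjusted p = 0.395) and 0.05 for HFS (SE 0.145, adjusted p = 0.91). GRIN3A averaged 7.28 ± 0.27 in HFS+R, 7.12 ± 0.24 in HFS and 7.35 ± 0.20 in SD (SD, n = 10, 10 and 4). Its levels ran from 6.77 through a median of 7.30 to 7.63 in HFS+R and from 6.68 through 7.13 to 7.55 in HFS, and were 7.08, 7.31, 7.47 and 7.54 in SD. The 3 groups overlapped widely, and none of the differences was called: 0.16 for HFS+R vs HFS with an adjusted p of 0.326 (SE 0.104), −0.23 for HFS vs SD with 0.488 (SE 0.138) and −0.07 for HFS+R vs SD with 0.811 (SE 0.138).

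**Figure D5:**
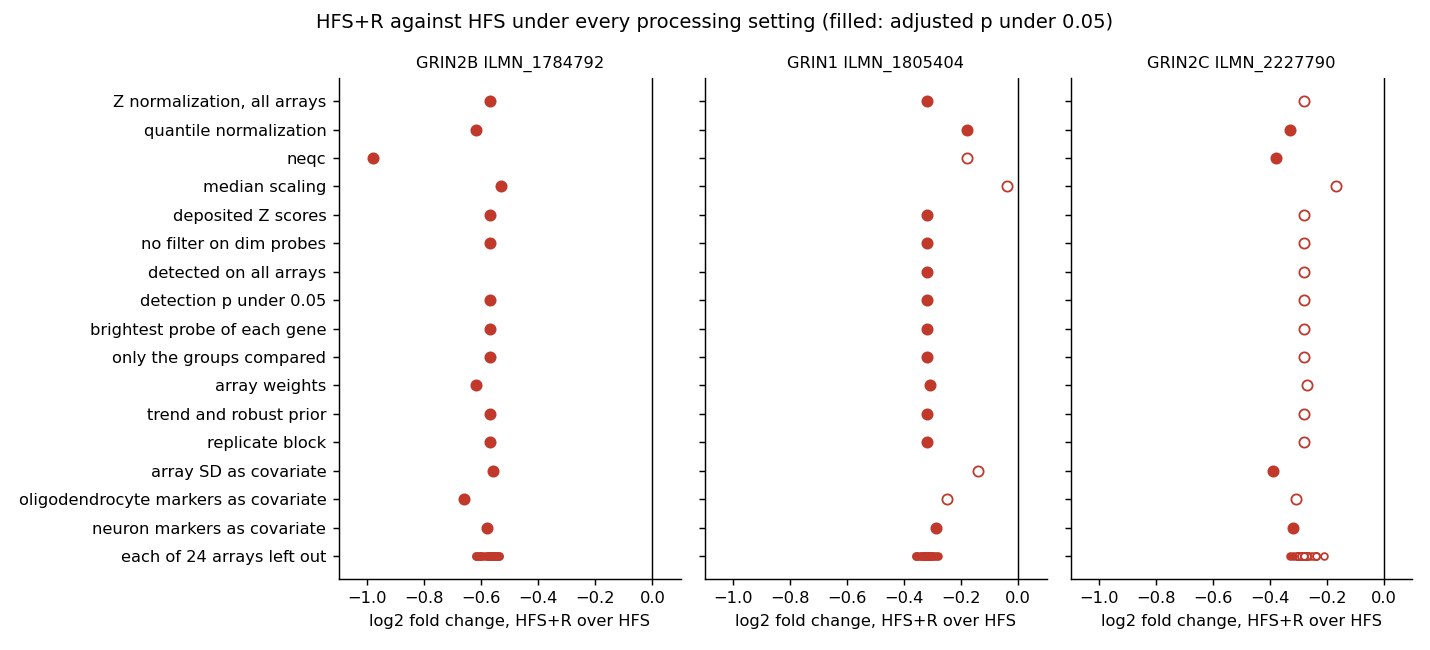
Log2 fold change of HFS+R over HFS (horizontal axis) for GRIN2B, GRIN1 and GRIN2C under each processing setting (rows), filled where the adjusted p was under 0.05; the last row shows the 24 fits that each leave out 1 array, and GRIN2B has no point where detection on all arrays was required. GRIN2B is filled in every fit, between −0.98 and −0.53, while GRIN1 and GRIN2C, below 0 in every fit, are filled in some and open in others.

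The subunit genes, each by its brightest kept probe, were set against each other across the 24 arrays, and of 10 gene pairs 0 had a correlation past the adjusted threshold by Pearson's r or Spearman's rho (100000 permutations each). GRIN2A and GRIN2B gave the smallest p for rho: r = 0.30 (permutation p = 0.169, adjusted p = 0.338) and rho = 0.42 (permutation p = 0.0428, adjusted p = 0.267), with r = 0.42 after leaving out the 2 arrays farthest from the median GRIN2A level. Within the 10 HFS+R arrays r was 0.81 and within the 10 HFS arrays 0.64, and with group means subtracted it was 0.53 over all arrays. These values were higher than the pooled one. GRIN2B was not detected on 5 of the 10 HFS+R arrays, and the HFS value includes replicate 7 with its low GRIN2A level. GRIN1 and GRIN2B gave r = 0.39 over all arrays (permutation p = 0.0571, adjusted p = 0.291), and −0.03 within HFS+R and −0.12 within HFS. GRIN1 and GRIN2A gave r = −0.33, and 0.12 without the 2 farthest arrays.

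The genes most like each subunit gene across the 24 arrays, of 9883 ranked by Pearson's r, are given as a description with no test, and all points share the scaling of their array. For GRIN2B they were UBE2O (r = 0.90), a ubiquitin-conjugating enzyme, ZBTB16 (0.88), a zinc finger transcription factor, and SCN2A (0.88), a neuronal sodium channel. With group means subtracted these became 0.84, 0.73 and 0.60. For GRIN2A they were MAPT (0.87), which encodes tau, POLR2A (0.79), the largest subunit of RNA polymerase II, and WDR6 (0.79). For GRIN1 they were HGS (0.90), an endosomal sorting protein, LAIR1 (0.89) and SLC44A4 (0.89). HRH3, the histamine H3 receptor, led for GRIN2C (0.78), with SHB (0.77) and BRPF1 (0.74), and MAP4, a microtubule-associated protein, led for GRIN3A (0.70), with GTF2IRD1 (0.69) and GNG2 (0.67).

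Around the receptor, gene lists of its pathway were counted by the brightest kept probe of each gene, beside the 14.4% of kept probes called in HFS+R vs HFS and the 6.75% in HFS+R vs SD. Of 11 measured scaffold genes of the postsynaptic density, 2 were higher and 1 lower in HFS+R vs HFS, with a list median of −0.05 beside 0.02 over all genes. HOMER1, a scaffold linking metabotropic receptors to the density, rose by 0.43 on the log2 scale (adjusted p = 0.01) and LRRC7, which encodes densin-180, by 0.32 (adjusted p = 0.0224). DLGAP4, a binding partner of PSD-95, fell by 0.30 (adjusted p = 0.0167), and the member called against SD was IQSEC2, an ARF exchange factor of the density, at −0.29 (adjusted p = 0.0443). The remaining 8 were not called in HFS+R vs HFS.

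Among 14 measured genes of calcium signalling downstream of the receptor, 1 rose and 1 fell in HFS+R vs HFS, with a list median of 0.06. PPP3CA, the catalytic subunit of the calcium-activated phosphatase calcineurin, rose by 0.36 (adjusted p = 0.00288), and against SD by 0.60 (adjusted p = 0.000394). The transcription factor gene CREB1 fell by 0.46 (adjusted p = 0.00734). Against SD the calmodulin kinase genes went opposite ways, CAMK2G at 0.45 (adjusted p = 0.00782) and CAMK2D at −0.44 (adjusted p = 0.00562). Against HFS they stood at 0.13 (adjusted p = 0.272) and −0.16 (adjusted p = 0.13).

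Of 13 measured kinases and phosphatases known to act on NMDA receptors, 2 rose and 1 fell in HFS+R vs HFS. CDK5, a neuronal kinase that phosphorylates GluN2A and governs GluN2B turnover, fell by 0.35 (adjusted p = 0.00491). CSNK2A1, a casein kinase 2 subunit that acts on GluN2B, rose by 0.23 (adjusted p = 0.0308) and PPP2CA, a catalytic subunit of phosphatase 2A, by 0.16 (adjusted p = 0.0223). Against SD, PTK2B, the kinase PYK2, stood at −0.44 (adjusted p = 0.00895) and PPP2CA at 0.22 (adjusted p = 0.0278).

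Of 15 measured transport genes 1 was called in HFS+R vs HFS and 1 in HFS+R vs SD. LIN7C, a PDZ-domain protein of the KIF17 cargo complex, rose by 0.26 in HFS+R vs HFS (adjusted p = 0.0213). KIF17, the kinesin that carries GluN2B vesicles in mouse dendrites, was detected on 9 of 24 arrays and stood at −0.09 there (adjusted p = 0.402) and at −0.29 against SD (adjusted p = 0.0414). Of 11 measured genes for the co-agonists glycine and D-serine, GCSH, a subunit of the glycine cleavage system, rose by 0.23 (adjusted p = 0.0499) and against SD by 0.35 (adjusted p = 0.0408). SRR, which makes D-serine, stood at 0.10 (adjusted p = 0.319). Of 10 measured genes for the supply and removal of glutamate, the glutamine transporters SLC38A1 and SLC38A2 rose, by 0.66 (adjusted p = 0.00682) and 0.50 (adjusted p = 0.0442), and the list had the highest median of the 6 lists in HFS+R vs HFS, 0.16. In HFS vs SD 0 genes of the 6 lists were called.

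Of these calls in HFS+R vs HFS, that of PPP3CA was kept under all 39 other settings, at 0.33 to 0.52. Median scaling ended those of CREB1 (adjusted p = 0.253), DLGAP4 (adjusted p = 0.293) and CDK5 (adjusted p = 0.11), and the array SD covariate those of CREB1, DLGAP4, HOMER1 (adjusted p = 0.0946), LRRC7 (adjusted p = 0.233), LIN7C (adjusted p = 0.114) and SLC38A1 (adjusted p = 0.0611). The calls of GCSH and SLC38A2 were lost under 24 and 23 of the 39 settings, and that of CSNK2A1 under 12. PPP2CA was lost with the oligodendrocyte covariate (adjusted p = 0.0511). Of the calls in HFS+R vs SD, that of IQSEC2 was lost under 20 of 39 settings, that of KIF17 under 13 of 38 (at −0.53 to −0.19) and that of GCSH under 11 of 39. The call of PPP2CA against SD was lost under 5 settings and that of CAMK2G under 3, while those of PPP3CA, CAMK2D and PTK2B were lost under 1 each.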

How the data were processed

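Per the labels and the study's methods, cortex RNA of 24 monkeys was hybridized to 24 arrays, 1 per monkey. The authors deposited non-normalized signal intensity values exported from GenomeStudio 2011.1, each with a detection p-value that the authors deposited in the next column. A deposited Z score for every probe gives the log2 signal minus the array mean, divided by the array SD. Z scores computed anew lay within 5e-10 of those deposited, and were multiplied by 1.46019 and shifted by 6.46267 to a log2 scale. How the probes match the monkey genome is not given in the sources used here. The platform annotation gives 1 gene symbol to 30113 probes, several to 8 and none to 17202.

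A probe was tested if its detection p was below 0.01 on 4 or more arrays. The model was fitted in limma 3.58.1 (R 4.3.3) to all 24 arrays at once, with moderated 2-sided tests, after the script was tested on simulated data. Benjamini-Hochberg adjustment ran over all 15531 kept probes, with 0.05 as the threshold. The number of arrays limits the precision. Permutation tests used numpy 2.4.6 and figures matplotlib 3.10.9. Other settings were quantile, neqc (offset 16) and median scaling, the deposited Z scores, other detection filters, 1 probe per gene, pairwise fits, weighted arrays, a trended robust prior, marker and array SD covariates, the replicate number as a block, and each array left out. The deposited Z scores repeat the main fit. Other detection filters, 1 probe per gene, pairwise fits and the trended prior leave a probe's fold change unchanged. A count of settings is therefore no count of independent tests. For the ratio of GRIN2B to GRIN2A, neqc was added after seeing the data. All probes of the subunit genes are named. Of each pathway list, up to 4 genes with the smallest p in HFS+R vs HFS could be named, with up to 4 called elsewhere, and for each subunit gene the 3 genes most like it. The members and lists were chosen with earlier results of these data known.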

Additional observations from a re-analysis of the deposited data

Results flagged for a closer look

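Within a group of 4 to 10 arrays, a value was singled out where its gap to the nearest other array was too large a part of the group's range by Dixon's criterion at the 95% level, which chance meets in about 1 in 20 groups. Of 39 groups, 5 had such a value. GRIN2A ILMN_1798104 had a level of 9.71 in HFS replicate 7, with the nearest HFS monkey at 11.23, and the log2 ratio of GRIN2B to GRIN2A was −3.05 on the same array, with the nearest at −4.31. GRIN2B ILMN_1784792 had a level of 6.79 in SD replicate 1, with the nearest SD monkey at 7.36. Without that array GRIN2B stood at −0.95 in HFS+R vs SD (limma, adjusted p = 0.00236). In HFS vs SD the same fit gave −0.38, against −0.23 with all arrays, and was not called. The other values belong to probes detected on no array: 5.34 for GRIN2A ILMN_1895745 in HFS replicate 10 (nearest 5.57) and 5.79 for GRIN2D ILMN_1740655 in SD replicate 3 (nearest 5.65).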

How the results depend on the processing

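In HFS+R vs HFS, GRIN2B ILMN_1784792 was called under all 38 settings in which it was tested, at −0.98 to −0.53. Several of these settings leave its fold change unchanged, so they are not independent tests. The 2 called GRIN probes became 1 under median scaling, 1 with the oligodendrocyte covariate (GRIN1 lost in both) and 1 with detection required on all arrays, where GRIN2B was not tested, and 2 to 3 with an array left out. With neqc and with the array SD covariate it stayed 2, but GRIN1 was lost and GRIN2C called in its place, and quantile normalization and the neuron covariate called 3, with GRIN2C added. In HFS+R vs SD the 1 call became 0 with detection on all arrays and 0 with the replicate block, and stayed 1 with each array left out. In HFS vs SD the count was 0 throughout. Over all kept probes, median scaling called 2168 higher and 121 lower in HFS+R vs HFS, against 1407 and 830, and shifted the median of all probes to 0.103 there and −0.145 in HFS vs SD. The array SD covariate called 626 probes in place of 2237.

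Replicate numbers did not pair the monkeys. Deviations of same-numbered HFS+R and HFS arrays correlated at −0.128 to 0.246, and 0 of 10 arrays correlated best with its own number. With the replicate block GRIN2B stood at −0.57 in HFS+R vs HFS (adjusted p = 0.0033) and −0.52 in HFS+R vs SD (4 numbers shared, adjusted p = 0.444), and all kept probes gave 2225 and 0 calls.

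Differences that changed sign were all uncalled. For GRIN1 ILMN_1805404, HFS vs SD was −0.16 (median scaling) and −0.02 (array SD covariate). For GRIN1 ILMN_2321301, HFS vs SD was 0.01 (quantile), 0.00 (neqc), 0.06 (replicate block) and 0.03 (array SD). For GRIN2A ILMN_1798104, HFS+R vs HFS was −0.07 (array weights), −0.17 (array SD), −0.17 (oligodendrocyte covariate) and −0.16 to 0.08 with an array left out (−0.16 without HFS replicate 7). Its HFS vs SD was 0.04 (array weights), 0.06 (replicate block), 0.24 (array SD), 0.04 (oligodendrocyte) and 0.00 (neuron covariate), and −0.07 to 0.17 with an array left out. Its HFS+R vs SD was −0.07 (median scaling), −0.03 (array weights) and −0.13 (oligodendrocyte), and −0.03 to 0.05 with an array left out. For GRIN2A ILMN_1895690 the array SD covariate gave −0.12 in HFS+R vs HFS and 0.03 in HFS vs SD, while its HFS+R vs SD difference ran from −0.31 to 0.03 with an array left out. GRIN2C in HFS vs SD was −0.09 (median scaling). The cause was not tested.

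The ratio of GRIN2B to GRIN2A in HFS vs SD was −0.37 without HFS replicate 7 (adjusted p = 0.0126) and ran from −0.37 to −0.12 with an array left out; HFS+R vs HFS ran from −0.65 to −0.45 and HFS+R vs SD from −0.94 to −0.72. At a detection p of 0.05, GRIN2A ILMN_1895690 was detected on 18 arrays in place of 10 and GRIN2B ILMN_3307714 on 4 in place of 0. Signal close to background limits GRIN2B, GRIN3A and the dim GRIN1 and GRIN2A probes.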
